A study of Caenorhabditis elegans with 8 samples.

Results

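The respiratory chain of Caenorhabditis elegans was followed through 57 genes among 47087 loci of the expression table. Of these, 45 are nuclear genes, chosen by their symbols (the nuo, cox, ucr, asb and asg families, atp-1 to atp-5, cyc-1, cyc-2.1, isp-1, gas-1, mev-1, sdha-1, sdhb-1, sdhd-1, lpd-5 and hpo-18). The other 12 are all protein-coding genes of the mitochondrial chromosome in the annotation of WBcel235. Poly(A)-selected RNA of whole wild-type (N2) animals was sequenced in 8 libraries. In 4 libraries, named NL, the animals stayed in constant darkness; in 4, named DL, they had cycles of 12 h of light at 8000 lux and 12 h of darkness. Before this, all animals were raised from synchronized L1 larvae on OP50 bacteria at 20 °C for 40 h, to the stage labelled young adult. Each of 4 labelled batches holds 1 library of each group. The labels give neither the number of light cycles, nor the phase at harvest, nor separate cultures for the replicates, so the p-values rest on the spread among these 8 libraries, part of which may be technical.

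The respiratory chain moves electrons from NADH and succinate to oxygen across the inner mitochondrial membrane and pumps protons, which ATP synthase uses to make ATP. Complex I takes electrons from NADH and complex II from succinate. Ubiquinone carries them to complex III, cytochrome c on to complex IV, and complex V is ATP synthase. Most subunits are encoded in the nucleus, while the mitochondrial genome of animals encodes core subunits of complexes I, III, IV and V and none of complex II, so that both genomes supply parts of the same complexes. In C. elegans several members are known from mutants with altered lifespan or oxygen sensitivity, among them isp-1, nuo-6, gas-1 and mev-1. The germ line carries many mitochondria in this species, and muscle is rich in them.

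Expression is given as FPKM, which divides fragments by gene length and by library size, so levels of different genes can be set side by side roughly. Differences between libraries still varied with gene length, as given below. Whether poly(A) selection captured mitochondrial and nuclear messages alike was not tested. The libraries held 18683546 to 20446464 reads in genes, recovered from the steps between low values, and all 57 members gave whole reads in all 8 libraries. Mitochondrial members took 1.58% to 3.73% of these reads and nuclear members 1.84% to 2.24%. Marker lists of muscle, neurons, intestine, hypodermis and germ line had all their genes at a mean of at least 1 FPKM. Transcripts of later stages were uneven: those of adults within both groups, those of sperm mainly between the groups, apart from NL 3. The mean log2(FPKM + 1) of 6 adult markers, 5 vitellogenins and col-19, was 4.40 in NL 3 and 5.12 in DL 2, against 0.10 to 0.57 in the other NL libraries and 0.99 to 1.25 in the other DL libraries. That of 29 major sperm protein genes was 5.10 in NL 3 and 4.76 to 6.92 in DL, against 0.55 to 1.86 in the other NL libraries. All 29 were higher in DL on average, by a median of 3.32 on this scale. What part stage or germ line had in the differences between the groups was not tested. In whole animals, fewer cells of a type and less RNA per cell cannot be told apart.

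No member of the respiratory chain passed the test between the light cycle and darkness. Limma, fitted on log2(FPKM + 1) over the 14358 genes whose mean reached 1 FPKM and adjusted by Benjamini-Hochberg, called 0 of the 55 members tested at 0.05, against 0.703% of all genes tested. Those are 101 genes, 42 higher and 59 lower, and with each library brought to the same sum of FPKM 41 were higher and 32 lower. With 1 library left out the count over all genes lay between 9 (without NL 1 or NL 2) and 1561 (without NL 3), while that of members was 0 each time. Unadjusted, 1 member had a p under 0.05, the low mitochondrial gene ND4L, where 20.59% of all genes did. The groups overlapped for each of the 55 members, whereas over all genes they did not overlap for 9.24%. The smallest adjusted p of a member was 0.181. The largest changes in size were those of the mitochondrial ND4L, COX1, COX3 and COX2. The median log2 change was 0.26 for the 12 mitochondrial members, 11 of them positive, and -0.02 for 43 nuclear members, 18 positive and 25 negative. With 1 library left out the mitochondrial median lay between 0.13 and 0.38, and without NL 1, which gave the 0.13, 8 of the 12 were positive. Over all tested genes the median was 0.03 and 53.5% were positive.

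The sizes of change that these libraries leave possible are given by the 95% intervals of limma. For 40 of the 43 nuclear members tested the whole interval lay within a 2-fold change in either direction on the log2(FPKM + 1) scale, and 39 had a log2 change of less than 0.25 in size. Among the mitochondrial members 7 of 12 intervals lay within that range. The intervals reached from -0.95 to 1.67 over the nuclear members and from -0.75 to 1.60 over the mitochondrial ones.

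**Figure D1:**
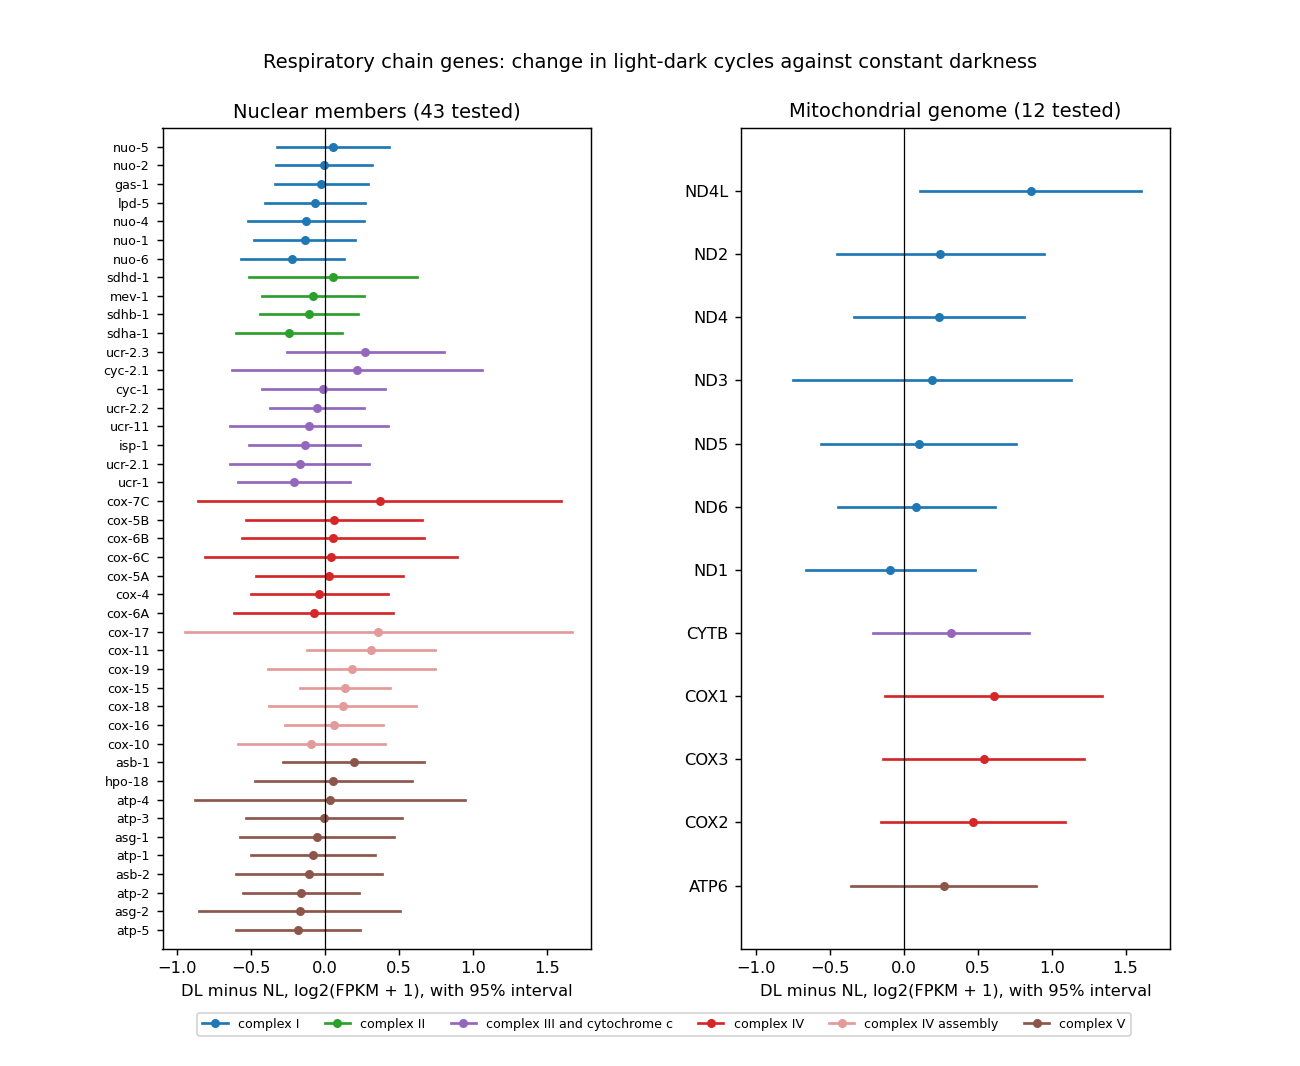
Log2 change of each tested member, DL minus NL, on the log2(FPKM + 1) scale, with limma's 95% interval as a line; nuclear members are on the left and mitochondrial ones on the right, coloured by complex. The intervals span 0 for every nuclear member, and COX1, COX2 and COX3 lie farthest to the right among the abundant mitochondrial genes.

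Mitochondrial transcripts were among the most abundant of the 57. The genes are named here from RefSeq, whose entries lie at the same places of the same assembly; they run on the plus strand of MtDNA from ND6 (113 to 549) to ND5 (11691 to 13272). The core of complex IV, which reduces oxygen, is made of COX1, COX2 and COX3. COX2 (9649 to 10348) was the most abundant. In library order it read 3463, 3873, 5351 and 4493 FPKM under NL and 5910, 4799, 4793 and 8669 under DL. NL 3 lay above DL 2 and DL 3, and the other NL libraries lay below all DL libraries. The log2 change was 0.47 ± 0.28 (SE; limma adjusted p = 0.387).

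COX1 (7827 to 9428), the catalytic subunit, stood at 2137, 2501, 5176 and 3143 FPKM under NL and 4787, 4100, 3660 and 6510 under DL. NL 3 lay above all DL libraries but DL 4, and the other NL libraries lay below all of them. Its log2 change was 0.61 ± 0.33 (SE; limma adjusted p = 0.335). COX3 (5678 to 6449) stood at 2377, 3103, 4406 and 3086 FPKM under NL and 3414, 4699, 3906 and 7156 under DL (log2 change 0.54 ± 0.30, SE; limma adjusted p = 0.357). As with COX2 and COX1, the highest value was that of DL 4 and the lowest that of NL 1.

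Cytochrome b, encoded by CYTB (4504 to 5621), is the mitochondrial subunit of complex III. It stood at 2276, 2688, 3145 and 2528 FPKM under NL and 2871, 3046, 2919 and 4648 under DL (log2 change 0.32 ± 0.23, SE; limma adjusted p = 0.486). Apart from DL 4, the DL libraries lay within the NL range. ATP6 (2634 to 3235), a proton channel subunit of ATP synthase, had 2466, 2876, 4166 and 3760 FPKM under NL and 3743, 3015, 3655 and 5678 under DL (0.27 ± 0.28, SE; limma adjusted p = 0.637).

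The 7 mitochondrial genes of complex I, its proton-pumping ND subunits, stood lower than those of complex IV. Their median log2 change was 0.19, and 6 of the 7 were positive. Per library, ND1 held 1050, 1353, 1788 and 1587 FPKM under NL and 1663, 1223, 951.5 and 1618 under DL. It was the 1 mitochondrial gene with a negative log2 change (-0.09 ± 0.25, SE; limma adjusted p = 0.876), and the DL range held 3 of the 4 NL values. ND2 averaged 667 ± 196 FPKM under NL and 799 ± 249 under DL (SD, 4 libraries each), ND4 1125 ± 253 and 1340 ± 378, and ND5 1166 ± 271 and 1285 ± 434. Their log2 changes were 0.25, 0.24 and 0.10, with limma adjusted p = 0.705, 0.654 and 0.883.

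The least even of these genes was ND3 (11356 to 11691), which 1 base separates from a ribosomal RNA gene. It stood at 586, 758, 1269 and 2630 FPKM under NL and 1443, 1181, 1219 and 1211 under DL. NL 4 lay above every other library, and the DL libraries lay close together (log2 change 0.19 ± 0.42, SE; limma adjusted p = 0.839). ND6 was lower, at 94.0 to 194 FPKM under NL and 137 to 161 under DL.

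ND4L (549 to 783) lay at the bottom of the mitochondrial genes. It held 0, 4, 5 and 6 reads under NL and 15, 11, 11 and 5 in DL, so that NL 1 lay below the floor of 3 counts and DL 4 lay within the NL range. It is the shortest member, and its first base is the last of ND6. The log2 change was 0.86, with an interval of 0.11 to 1.60 (limma unadjusted p = 0.0287, adjusted p = 0.181). The ribosomal RNAs of the mitochondrion, listed at 66.7 to 179 FPKM for the small and 40.5 to 97.6 for the large one, stood above ND4L and below the other 11 messages in these poly(A)-selected libraries, except in DL 4, where the small one stood above ND6.

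**Figure D2:**
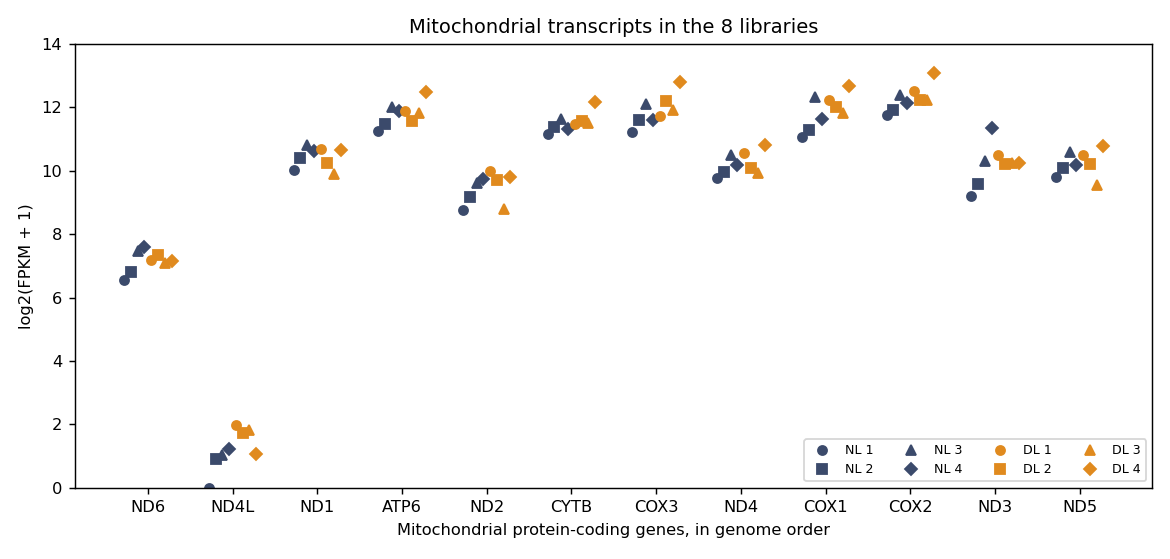
Level of each mitochondrial protein-coding gene as log2(FPKM + 1), in the order of the genes along the genome; each point is 1 library, dark for NL and orange for DL, with a symbol for each replicate number. ND4L lies below 2 in all libraries, NL 4 stands above the rest at ND3, and DL 4 is the highest library at COX1, COX2, COX3, CYTB and ATP6.

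Nuclear genes of complex I were even across the libraries, with the highest library 1.27 to 1.60 times the lowest for the 7 tested. The summed FPKM of the 8 genes was 1849, 1872, 1877 and 1914 under NL and 1693, 1655, 1939 and 1787 under DL. The gene of the NADH-binding subunit, nuo-1, stood at 394, 402, 339 and 360 FPKM under NL and 282, 327, 381 and 375 under DL (log2 change -0.14 ± 0.15, SE; limma adjusted p = 0.658). For gas-1, a core subunit next to the ubiquinone site, the values were 189 to 229 FPKM under NL and 184 to 234 under DL, and the log2 change was -0.02 with an interval of -0.34 to 0.29. The largest negative change of the complex was that of nuo-6, an accessory subunit. It stood at 304, 304, 395 and 327 FPKM under NL and 266, 299, 328 and 247 under DL (log2 change -0.22 ± 0.16, SE; limma adjusted p = 0.471). It was lower in DL in each of the 4 batches, though by little in batch 2 (304 against 299). Of the 43 nuclear members tested, 2 kept 1 direction in all 4 batches, a count that carries no test. The largest positive change among these nuclear genes was 0.05, for nuo-5, an iron-sulfur subunit.

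The gene nuo-3 was listed at 0 to 6 reads per library and was left untested by the minimum of 1 FPKM. In the annotation 72.6% of its exonic bases lie in exons of another gene on the same strand. The same holds for cox-14 (75.7% shared, 0 to 6 reads), which was not tested either, and for cox-16 (61.6% shared, 16.5 FPKM over all libraries). How reads in shared bases were counted is not given in the sources used here, so the levels of these 3 genes are uncertain.

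Complex II is encoded in the nucleus alone, and its 4 genes stood at 153 to 305 FPKM on average. The flavoprotein gene sdha-1 had the largest negative change of all nuclear members: 179, 198, 131 and 157 FPKM under NL and 125, 130, 153 and 148 under DL (log2 change -0.25 ± 0.16, SE; limma adjusted p = 0.434). NL 3 lay among the DL libraries. For sdhb-1, the iron-sulfur subunit, the NL values were 300, 299, 299 and 365 FPKM and the DL values 301, 250, 334 and 290 (-0.11 ± 0.15, SE; limma adjusted p = 0.730). The cytochrome b subunit gene mev-1 averaged 281 ± 7.37 FPKM under NL and 269 ± 48.5 under DL (SD, 4 libraries each). The membrane anchor gene sdhd-1 averaged 215 ± 39.01 and 230 ± 78.4.

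In complex III itself, isp-1, the Rieske iron-sulfur protein, was the most abundant nuclear gene, at 760, 720, 712 and 887 FPKM under NL and 659, 594, 816 and 738 under DL (log2 change -0.14 ± 0.17, SE; limma adjusted p = 0.689). The cytochrome c1 gene cyc-1 stood at 481, 477, 372 and 470 FPKM under NL and 347, 411, 515 and 530 under DL (-0.01 ± 0.18, SE). A core protein gene, ucr-1, averaged 471 ± 67.9 and 406 ± 54.8 FPKM (SD, 4 libraries each), with the largest negative change of the complex (-0.21 ± 0.17, SE; limma adjusted p = 0.526). Cytochrome c itself, from cyc-2.1, varied far more: 1189, 1216, 697 and 681 FPKM under NL and 555, 954, 1817 and 1293 under DL. The DL libraries held both the lowest and the highest value, a ratio of 3.27, and the log2 change was 0.21 ± 0.38 (SE; limma adjusted p = 0.794).

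For the nuclear subunits of complex IV, the median log2 change was 0.04, 5 of 7 were positive, and the highest library was 1.77 to 5.88 times the lowest. The most abundant was cox-5A, at 1005, 920, 786 and 942 FPKM under NL and 711, 764, 1268 and 1075 under DL (log2 change 0.03 ± 0.22, SE; limma adjusted p = 0.958). The small subunit gene cox-7C was the least even of the nuclear subunits: 411, 428, 205 and 171 FPKM under NL and 128, 312, 754 and 568 under DL. From DL 1 to DL 3 this is a ratio of 5.88, and the log2 change of 0.37 had an interval of -0.86 to 1.60. For cox-6A, which had the largest negative change (-0.08), the values were 491 to 603 FPKM under NL and 378 to 746 under DL. All 7 genes were highest in DL 3, and 6 of 7 were lowest in DL 1.

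Genes with cox symbols that act in the assembly of complex IV stood lower, at means of 4.96 to 59.97 FPKM for the 7 tested. Their median log2 change was 0.13, and 6 of the 7 were positive. The copper chaperone gene cox-17 had the largest, 0.36, over 4 to 83 reads per library (limma adjusted p = 0.771). For cox-15, which acts in heme A synthesis and is the most abundant of the group, the values were 53.5 to 65.0 FPKM under NL and 52.3 to 69.3 under DL (0.13 ± 0.14, SE; limma adjusted p = 0.629). The largest negative change was that of cox-10, also of heme A synthesis, at 17.1, 17.6, 11.1 and 16.6 FPKM under NL and 10.47, 12.3, 18.2 and 17.9 under DL (-0.09).

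ATP synthase held the most abundant nuclear members. The catalytic beta subunit gene atp-2 stood at 2231, 2158, 1795 and 2227 FPKM under NL and 1787, 1806, 2006 and 1892 under DL. Its DL values lay between that of NL 3 and those of the other NL libraries, apart from DL 1 just below NL 3 (log2 change -0.16 ± 0.17, SE; limma adjusted p = 0.649). The alpha subunit gene atp-1 averaged 1685 ± 152 FPKM under NL and 1603 ± 240 under DL (SD, 4 libraries each). For atp-5, which encodes the stalk subunit d, the averages were 1209 ± 112 and 1076 ± 200 (-0.18 ± 0.19, SE; limma adjusted p = 0.635). Of the 10 genes 9 were lowest in DL 1 and 7 highest in DL 3.

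Set against each other, the genomes had their highest and lowest sums in different libraries. The summed FPKM of the 12 mitochondrial genes was 16646, 19914, 29260 and 24622 under NL and 27957, 25337, 23399 and 40085 under DL. For the 45 nuclear genes the sum was 19785, 19577, 16230 and 17820 under NL and 13755, 15718, 23313 and 19905 under DL. NL 1 and NL 2 had the lowest mitochondrial sums of all and the highest nuclear sums of the dark libraries. DL 1 had the lowest nuclear sum, with a mitochondrial sum above those of all but NL 3 and DL 4. The ratio of mitochondrial to nuclear sums, which no scaling of a whole library changes, was 0.841, 1.017, 1.803 and 1.382 under NL and 2.032, 1.612, 1.004 and 2.014 under DL. It averaged 1.26 ± 0.426 under NL and 1.67 ± 0.482 under DL (SD, 4 libraries each). The groups overlapped, and the difference of 0.41 on the log2 scale is smaller than the SD within either group (0.485 and 0.477). Within batches, the ratio was higher in DL in batches 1, 2 and 4 (by 1.27, 0.66 and 0.54 on the log2 scale) and in batch 3 the difference was -0.85. With 1 library left out the difference lay between 0.23 (without NL 1) and 0.63 (without DL 3), and without NL 3 and DL 2 it was 0.60.

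By complex, the same ratio averaged 3.11 ± 0.889 under NL and 3.54 ± 0.904 under DL for complex I, and 0.815 ± 0.199 and 1.03 ± 0.259 for complex III with cytochrome c. For complex IV without its assembly factors it was 2.71 ± 1.098 and 3.795 ± 1.31, and for ATP synthase 0.431 ± 0.142 and 0.549 ± 0.152 (SD, 4 libraries each). The log2 differences were 0.19, 0.33, 0.49 and 0.36, each with overlapping groups. The sums rest on 7, 1, 3 and 1 mitochondrial genes, so their sizes are not ratios of subunits. Complex IV took 47.9%, 47.6%, 51.0% and 43.6% of the mitochondrial sum under NL and 50.5%, 53.7%, 52.8% and 55.7% under DL. Only NL 3 reached the DL range there. Complex I took 25.7% ± 3.47 under NL and 21.5% ± 3.397 under DL (SD, 4 libraries each).

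**Figure D3:**
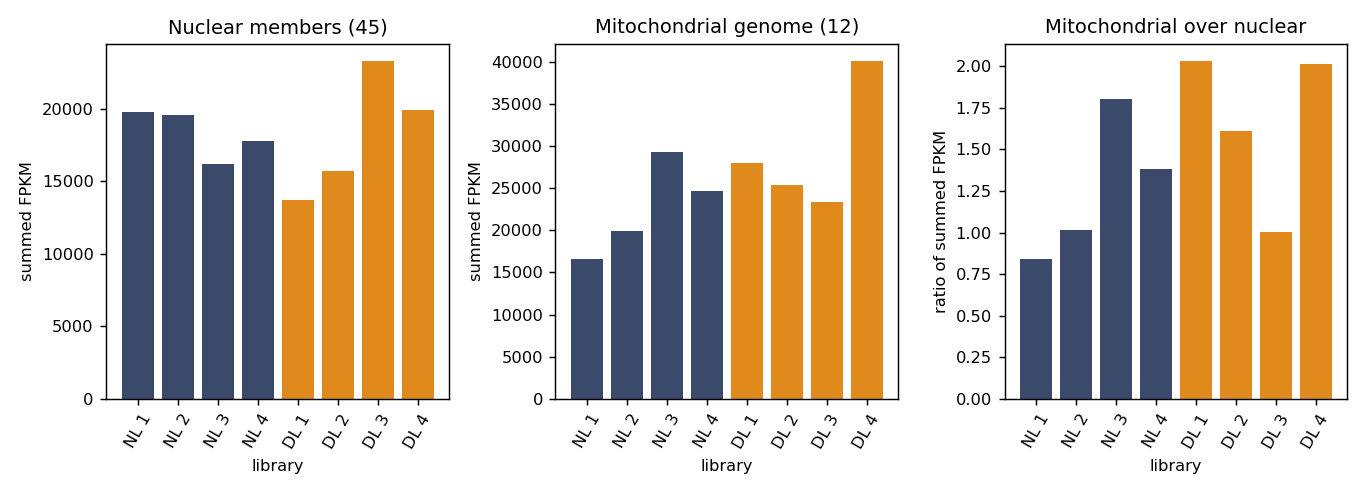
Summed FPKM of the 45 nuclear members (left) and the 12 mitochondrial genes (middle) and the ratio of the sums (right) in each library, dark for NL and orange for DL; bars start at 0 and each is 1 library. Nuclear sums are lowest in DL 1 and highest in DL 3, mitochondrial sums are lowest in NL 1 and highest in DL 4, and the ratio is about 1 in NL 2 and DL 3 and about 2 in DL 1 and DL 4.

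Most nuclear members were high in the same libraries and low in the same libraries. Relative to each gene's mean over the 8 libraries, 39 of 43 lay below it in DL 1, 36 in DL 2 and 32 in NL 3, while 40 lay above it in DL 3 and 32 in DL 4. The median of these deviations was -0.33 in DL 1 and 0.25 in DL 3 on the log2 scale, where that of all tested genes was 0.01 and 0.04. An exception, named after its values were seen, was nuo-4, an accessory subunit of complex I. It was highest in DL 1 (399 FPKM) and lowest in DL 3 (262 FPKM).

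The difference between DL 1 and DL 3, the lowest and highest libraries in these medians, went with the length of the genes and with the scaling of the libraries. From DL 1 to DL 3 the median difference was 1.21 for 8 nuclear members with under 500 bases of exon, 0.72 for 16 with 500 to below 1000, 0.42 for 16 with 1000 to below 2000 and 0.51 for 3 with 2000 or more. Over all tested genes these medians were 0.38, 0.20, -0.03 and -0.17. Among genes averaging 100 FPKM or more, a class nearer to the members in level, it was 1.02 for 146 genes under 500 bases and 0.25 for 621 of 1000 or more. Across 42 nuclear members with a mean of at least 5 FPKM, the difference and log2 length had a Pearson r of -0.58 and a Spearman rho of -0.58. Over 14326 tested genes with a known length, r was -0.14 and rho -0.31. These values are across genes of the same libraries and carry no test. Besides cox-17, cox-7C and cyc-2.1, the widest members were cox-6C (3.41-fold between libraries) and atp-4 (3.51-fold), named after their values were seen. Summed over all genes, FPKM was 661483 in DL 1 and 969531 in DL 3. With each library brought to the same sum the median difference of the 43 members between DL 1 and DL 3 was 0.02, against 0.57 as deposited, 0.47 with the length trend of all genes removed and 0.27 with the totals of recovered reads. Other libraries moved less under the same sum. The median deviation of the members was -0.138 in DL 2 (-0.203 as deposited), -0.085 in NL 3 (-0.128) and 0.079 in NL 1 (0.112). In DL 4 it was -0.005 (0.117 as deposited). What part the preparation or the scaling of the libraries had in these differences was not tested.

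**Figure D4:**
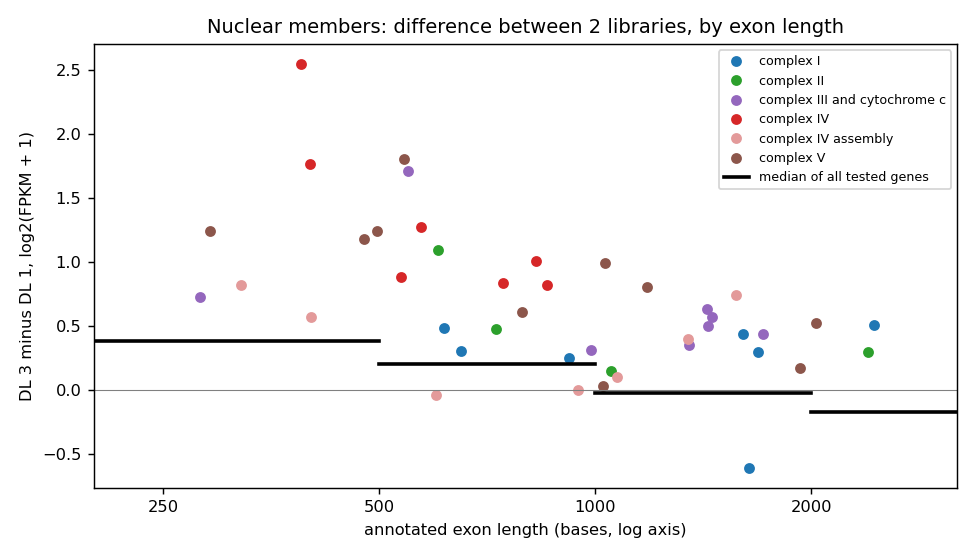
Difference between libraries DL 3 and DL 1, in log2(FPKM + 1), for each tested nuclear member against its annotated exon length on a log axis; points are coloured by complex and black lines give the median of all tested genes in 4 length classes. The members with under 500 bases have a median difference of 1.21 and those of 1000 to below 2000 bases 0.42, and nuo-4 lies alone well below 0.

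Markers of intestine and, in part, of muscle were low in the same libraries as the nuclear members. DL 3, highest in the nuclear members, was highest in neither list. Intestine markers were highest in NL 1 and DL 4, where 30 and 32 of 43 nuclear members lay above their means. The mean log2(FPKM + 1) of 6 intestine markers, none at 0, was 8.45, 8.30, 8.2 and 8.35 under NL and 7.81, 7.93, 8.26 and 8.41 under DL. It was lowest in DL 1, DL 2 and NL 3, the 3 libraries in which most nuclear members lay below their means. That of 13 muscle markers, none at 0, was 8.67, 8.58, 7.82 and 8.25 under NL and 7.81, 7.92, 8.2 and 7.78 under DL. NL 3, DL 1 and DL 2 were low in both, but DL 4 was low in muscle markers and high in the nuclear members. In DL 3, where the nuclear members had their highest median deviation, intestine markers (8.26) and muscle markers (8.2) stood below NL 1, NL 2 and NL 4. The 8 neuron markers were lowest in DL 2 (4.1) and stood at 4.59 in DL 1. The 5 hypodermis markers were highest in DL 2 (7.48) and lowest in NL 1 (6.44). Germline markers, 10 genes, were highest in DL 2 (5.58), NL 3 (4.89) and DL 1 (4.88), with DL 3 close behind (4.86). Of the intestine markers 5 of 6 had a negative log2 change and 2 an unadjusted limma p under 0.05, and of the muscle markers 13 of 13 and 3, where 20.59% of all genes had such a p. Of the 29 major sperm protein genes all 29 had a positive log2 change and such a p. Of the 10 germline markers 10 had a positive change and 4 such a p. Limma called 0 in each of these lists, against 0.703% of all genes. The part of these cell types in the levels of the members was not tested.

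Paralogous subunits stood in different proportions in different libraries. For subunit b of ATP synthase C. elegans has asb-1 (chromosome III, 4594543 to 4595821), known from the germ line, and asb-2 (chromosome X, 4469766 to 4471476). The level of asb-1 was 113, 129, 178 and 113 FPKM under NL and 136, 209, 140 and 126 under DL, and that of asb-2 was 748, 727, 541 and 594 under NL and 438, 534, 766 and 717 under DL. Neither passed the test, with log2 changes of 0.19 ± 0.21 and -0.11 ± 0.22 (SE; limma adjusted p = 0.657 and 0.819). The ratio of asb-1 to asb-2 was 0.151, 0.178, 0.328 and 0.190 under NL and 0.312, 0.392, 0.182 and 0.175 under DL. It was high in NL 3 and DL 2, the libraries with adult transcripts, and in DL 1. The mean of 10 germline markers was 4.41, 4.60, 4.89 and 3.99 under NL and 4.88, 5.58, 4.86 and 4.64 in DL on the log2(FPKM + 1) scale. DL 2 stood highest in these markers and in the ratio, with NL 3 next in each. DL 3 stood about as high in these markers as DL 1 with a lower ratio. What part the germ line had in the ratio was not tested.

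For subunit g, asg-1 averaged 205 ± 13.5 FPKM under NL and 205 ± 64.6 under DL, and asg-2 472 ± 101 and 437 ± 177 (SD, 4 libraries each). The ratio of asg-1 to asg-2 was 0.659 in NL 3 and 0.693 in DL 2 and 0.337 to 0.452 in the other 6 libraries. Core protein 2 of complex III has 3 genes, of which ucr-2.1 (285 ± 38.0 and 257 ± 67.1 FPKM) was the most and ucr-2.3 (46.9 ± 12.8 and 56.5 ± 14.4) the least abundant. ucr-2.3 had the largest positive change among the nuclear genes of the complex (0.27 ± 0.24, SE; limma adjusted p = 0.568). Its ratio to ucr-2.1 was 0.260 in NL 3 and 0.396 in DL 2, and 0.122 to 0.206 elsewhere. The ratio of ucr-2.2 to ucr-2.1, 0.588 and 0.660 in these libraries and 0.453 to 0.566 in the rest, was also highest in them, with a narrower spread. Reads shared between such paralogues could not be checked, as no sequences were used here.

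**Figure D5:**
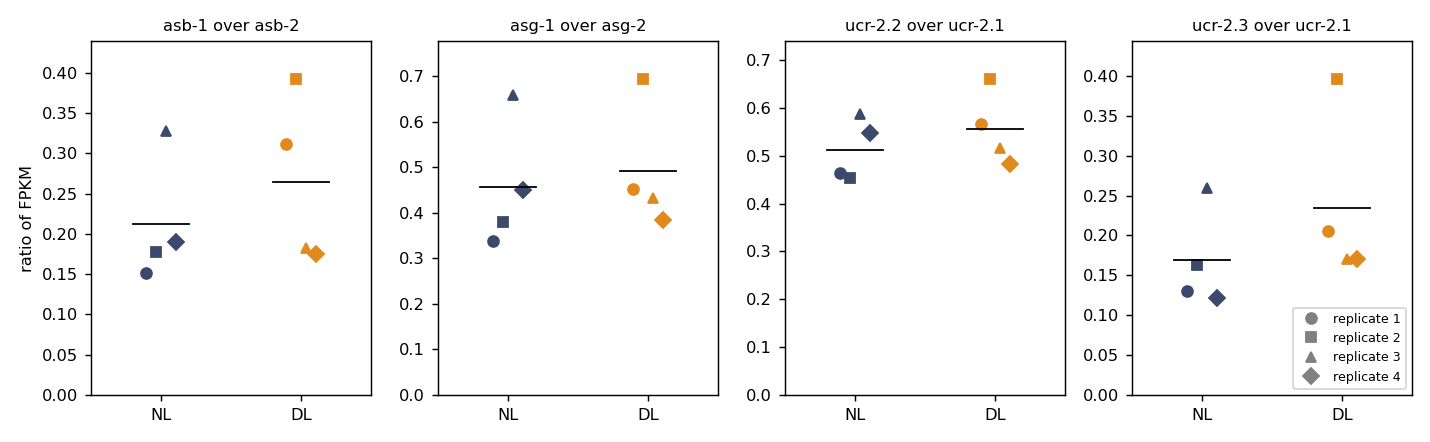
Ratio of FPKM within 4 pairs of paralogous subunits in each library, dark for NL and orange for DL, with a symbol for each replicate number and a line at the group mean; axes start at 0. In each panel NL 3 (triangle) is the highest of the NL libraries and DL 2 (square) the highest of the DL libraries.

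Genes that serve the chain without belonging to the 57 were read from lists of their own, and limma called 0 in each direction in all 4. Of 8 genes of ubiquinone synthesis all had positive log2 changes (median 0.20). The groups did not overlap for 3, coq-1, coq-4 and coq-5, the first pair named after their values were seen, where 9.24% of all genes did not overlap. The methyltransferase gene coq-5 stood at 36.2, 34.5, 48.0 and 50.4 FPKM under NL and 54.8, 63.4, 62.7 and 66.2 under DL (0.55 ± 0.16, SE; limma unadjusted p = 0.0064, adjusted p = 0.106). All of its DL libraries lay above all NL libraries. The hydroxylase gene clk-1 stood at 35.1 to 41.5 FPKM under NL and 33.6 to 48.3 under DL.

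The ADP/ATP carriers, which exchange ATP made in mitochondria for ADP, had log2 changes of both signs, 2 positive and 2 negative, with 3 of 4 at an unadjusted limma p under 0.05, where 20.59% of all genes were. The most abundant gene, ant-1.1, held 5689, 5381, 4361 and 5105 FPKM under NL and 3642, 3623, 4837 and 4691 under DL (log2 change -0.30 ± 0.22, SE; limma adjusted p = 0.501), a level above that of each nuclear member. Its paralogue ant-1.3 held 8.99, 10.7, 39.3 and 2.77 FPKM under NL and 42.0, 77.4, 42.0 and 34.7 under DL (2.05 ± 0.61, SE; limma adjusted p = 0.115). NL 3, the dark library with sperm transcripts, lay among the DL libraries. ant-1.4, named after its values were seen, followed the same order (1.99 ± 0.59, SE; limma adjusted p = 0.112). For ant-1.2, also named afterwards, the values were 0.81 to 3.07 FPKM under NL and 0.242 to 0.335 under DL, without overlap, on 4 to 55 reads (-1.26 ± 0.29, SE; limma adjusted p = 0.0882).

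For upkeep and expression of mitochondrial DNA 7 genes were read. Of these, 2 had positive and 5 negative log2 changes (median -0.06), and none had an unadjusted limma p under 0.05. The single-strand DNA-binding protein gene mtss-1 stood at 55.8, 59.8, 89.1 and 68.6 FPKM under NL and 52.4, 103, 91.3 and 85.8 under DL. The transcription and packaging factor gene hmg-5 stood at 31.5 to 47.1 FPKM under NL and 27.2 to 44.7 under DL. Of 18 genes for complex I subunits and factors outside the 57, 10 had positive and 8 negative changes, with a median of 0.03. Some were less even than the complex I members, all named after their values were seen. The highest library was 4.28 times the lowest for nduv-3, 2.93 times for ndua-7 and 2.7 times for ndub-8. These were lowest in DL 1 and highest in DL 3. Others were as even as the members, such as nduf-9 (1.27 times). The most abundant of the 18, ndub-5 and nduv-2, had log2 changes of -0.07 and 0.14. The first was highest in DL 3 (453 FPKM) and the second in DL 4 (418 FPKM), and both were lowest in DL 1 (285 and 259 FPKM).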

How the data were processed

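The authors deposited FPKM values, 1 column per library, as the deposited table is named. The submitters' processing notes name HISAT2, HTSeq and the build WBcel235. Tool versions, gene annotation, strand setting and any filter were not given in the sources used here. Libraries came from the NEBNext Ultra kit, per the labels' protocols, which does not mark strand; 10 nuclear members overlap genes of the other strand, by up to 6.5% of their exonic bases. Positions and exon lengths came from the Ensembl release 115 annotation of WBcel235. A gene name table held all 45 nuclear members and 3 mitochondrial ones. The names of all 12 mitochondrial genes were taken from RefSeq by position. Whole reads were recovered from FPKM and exon length for 99.55% of 22985 genes (within 0.05 read) and describe depth only. The library totals that FPKM implies came to 0.936 to 1.156 times those reads. The floor of 3 counts covers counting error only.

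Values were tested as log2(FPKM + 1), which understates changes of low genes, with limma 3.58.1 in R 4.3.3 (intensity trend, two-sided, Benjamini-Hochberg over 14358 genes). Tables were made with pandas 2.3.3 and numpy 2.4.6 in Python 3.11.15, and figures with matplotlib 3.10.9. The steps were tested on simulated data. The replicate numbers pair the libraries because the labels give same-numbered libraries a shared batch; deviations from the group means correlated at -0.01, -0.19, -0.32 and 0.19. The members, lists and rules were chosen with earlier results of these data known. Named were all mitochondrial genes, paralogues, fixed core subunits, and per complex the most abundant nuclear gene and the largest changes in each direction; of each other list, the 2 most abundant genes. Alternatives were other pseudocounts, filters and scalings, no intensity trend, the replicate block, and libraries or batches left out.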

Additional observations from a re-analysis of the deposited data

Results flagged for a closer look

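In 128 groups of 4 libraries (levels of named members, sums and ratios), 1 library stood apart from the other 3 in 9, where chance gives about 1 in 20. NL 3 was low in cyc-1 (371.6 FPKM, others 470 to 481), in cox-10 (11.1 FPKM, others 16.6 to 17.6) and in atp-2 (1795 FPKM, others 2158 to 2231). NL 4 was high in sdhb-1 (365 FPKM, others 299 to 300.4). DL 2, with NL 3 a library of adult transcripts, was high in asb-1 (209 FPKM, others 126 to 140) and in the ratio of ucr-2.3 to ucr-2.1 (0.396, others 0.170 to 0.206). DL 4 was high in CYTB (4648 FPKM, others 2871 to 3046), which is also the mitochondrial sum of complex III. DL 1 was high in ND3 (1443 FPKM, others 1181 to 1219).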

How the results depend on the processing

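Under 25 other settings limma called 0 members in each, with 0 to 3 members at an unadjusted p under 0.05, and the smallest adjusted p of any member was 0.112 (without batch 3). The sign of the log2 change held in all settings that tested the gene for 18 of 40 named members, among them COX1 (0.42 to 0.98), COX2, COX3, CYTB, ATP6, nuo-6 and sdha-1, and turned in at least 1 setting for 22. Every one of these turns was between changes that did not pass. The median change of the mitochondrial members lay between 0.10 and 0.50, and the log2 difference of the ratio between 0.12 and 0.83. For the nuclear members the median was -0.02, and -0.19 without batch 3; leaving out 1 library gave -0.16 to 0.07, and quantile normalization 0.01.

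Over all genes the count of 101 became 33 with no filter on low values, 216 with quantile normalization, 25 with the replicate block, 0 without batch 1 (limma; 2199 at an unadjusted p under 0.05), 13 without batch 2, 1096 without batch 3 and 1493 without NL 3 and DL 2. Leaving out 1 library gave 9 to 1561: 9 without NL 1 or NL 2, 1561 without NL 3, 221 without NL 4, 42 without DL 1, 19 without DL 3 and 15 without DL 4 (134 without DL 2). Split by direction, 42 were higher and 59 lower as deposited, 41 and 32 with the same sum of FPKM, 41 and 31 with the same sum outside the mitochondrial chromosome, and 67 and 149 with quantile normalization. Totals of recovered reads and removal of the length trend, both added after the data were seen, called 98 and 142. The cause of these moves was not tested. Depth limits ND4L, nuo-3, cox-14 and cox-17 most, with 4 reads or fewer in at least 1 library each.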
